A study of Homo sapiens with 12 samples.

Results

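The comparison described here is that of MIA PaCa-2 cells with the FAK hairpin sh1209 against MIA PaCa-2 cells with a scrambled control hairpin (shCtrl), 2 arrays each, 4 of the 12 arrays of the series. MIA PaCa-2 is an established line from a human pancreatic ductal adenocarcinoma (PDAC). Both hairpins sat in the pLKO.1 tet-on backbone, in lines selected and kept in 3.5 ug/ml puromycin, and both groups received 50 ng/ml doxycycline for 96 hours, so the drug exposure was shared. The other arrays held MIA PaCa-2 cells with a second FAK hairpin, sh1319, and the 3 hairpins in Capan-1, another PDAC line, where puromycin was 1.5 ug/ml. Whether replicate arrays stem from separate cultures is stated neither in the labels nor in the methods, so p-values measure the spread between these arrays, which may be technical. Members were the probes of the Illumina HumanHT-12 v4 array that are not spike-in controls and had a detection p under 0.05 in both arrays of at least 1 of the 2 groups. There were 16034 of 47228 such probes, carrying 12753 of the 34599 gene names in the table.

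FAK, the product of PTK2, is a cytoplasmic tyrosine kinase that is recruited to focal adhesions when integrins bind collagen and other matrix proteins. There it autophosphorylates, binds SRC and scaffolds such as BCAR1, and passes signals to the ERK pathway and the actin cytoskeleton. It also has functions that do not need its kinase activity, and in PDAC it has been studied for its part in growth, migration and the response to a dense stroma.

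Median intensities of the 4 arrays lay between 87.7 and 94.2, and 16596 to 17451 probes were detected on each, with 14727 to 15313 of the members among them. Arrays of 1 group correlated across member probes at 0.992 and 0.993, against 0.964 to 0.965 for arrays of different groups. MIA PaCa-2 is known as a poorly differentiated line, and its identity was checked against pancreatic ductal epithelial markers. Of 17 tested, 5 were members by their brightest probe. KRT8 and KRT18 were detected on all 4 arrays, while EPCAM, CDH1 and KRT7 were detected on none. VIM, the mesenchymal intermediate filament, had log2 intensities of 13.28 and 13.14 with shCtrl and 13.35 and 13.15 with sh1209. The label therefore could not be checked through ductal markers alone.

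PTK2 RNA was lower with sh1209. Probe 450253 had normalized log2 intensities of 9.45 and 9.46 with shCtrl and 7.28 and 7.14 with sh1209, so both sh1209 arrays lay below both shCtrl arrays. The change was -2.24 ± 0.11 (SE, n = 2 per group), which leaves 21.1% of the shCtrl signal (limma, adjusted p = 1.5e-07). The other PTK2 probe, 2680750, was dim, with log2 intensities of 5.16 and 4.92 against 5.46 and 5.23, and its change of 0.31 did not pass (limma, adjusted p = 0.25). All log2 values here follow background correction with an offset, which understates the change of dim probes. In RNA from whole cultures, fewer cells with a transcript and less transcript per cell cannot be told apart.

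Of all 24207 probes tested across the series, 18.0% passed an adjusted p under 0.05 in this comparison, 9.05% higher and 8.99% lower with sh1209. Among the 16034 members, 2172 were higher and 2158 lower. Members had to be detected in 1 of the groups, so a larger share than the background follows in part from the rule. The changes were mostly small. Of the members past the threshold, 394 rose and 443 fell by at least 1 on the log2 scale, and 75 rose and 66 fell by at least 2. The median absolute change of a member was 0.28, against 0.14 between the 2 arrays of either group.

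**Figure D1:**
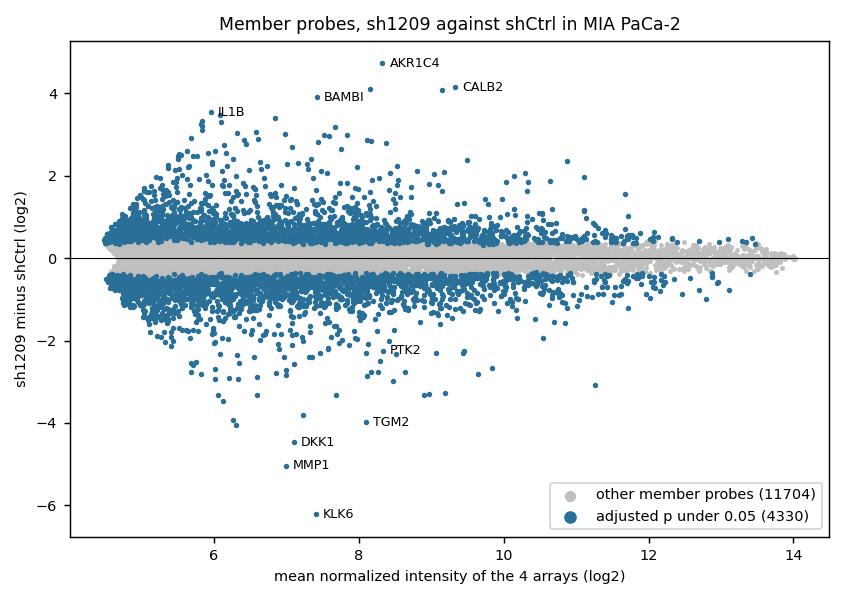
Log2 change (sh1209 minus shCtrl, vertical) against mean normalized log2 intensity of the 4 arrays (horizontal) for the 16034 member probes, with the 4330 past an adjusted p under 0.05 in blue and the rest in grey. Rises and falls were about equally many, and the probe of KLK6 at -6.21 lay lowest.

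The widest fall was at KLK6, a secreted serine protease of the kallikrein family. It had log2 intensities of 10.50 and 10.52 with shCtrl and was not detected on either sh1209 array, at 4.23 and 4.38. With sh1209 the signal was thus at least 57.5-fold lower (fitted change -6.21, limma, adjusted p = 1.6e-10), set against the lowest normalized signal of any detected probe on each array, as for every bound given here as at least a fold. A second KLK6 probe, 6520022, detected on all 4 arrays, changed by 0.04 (limma, adjusted p = 0.93), so the fall belongs to 1 of the 2 probes. MMP1, the interstitial collagenase that cleaves type I collagen, went from 9.40 and 9.62 to 4.70 and 4.24, a change of -5.04 (limma, adjusted p = 4.4e-09), and was detected on 1 of the 2 sh1209 arrays.

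DKK1, a secreted inhibitor of WNT signalling, had log2 intensities of 9.33 and 9.33 with shCtrl and 5.02 and 4.72 with sh1209, a change of -4.46 (limma, adjusted p = 4.3e-09). TGM2, a transglutaminase that crosslinks matrix proteins, fell from 10.08 and 10.09 to 6.13 and 6.08, a change of -3.98 (limma, adjusted p = 4.3e-09), and all 3 of its member probes fell. The groups were far apart for both genes. Falls of the other ranked genes measured in both groups lay between -3.81 and -2.77. They were SLC2A3 (a glucose transporter, -3.81), SERPINE2 (an inhibitor of thrombin and plasminogen activators, -3.33), TUBB2B (a beta tubulin, -3.29), PRND (the prion-like protein doppel, -3.26), SERPINA3 (a secreted protease inhibitor, -3.08), MT1M (a metallothionein, -2.85), SCD (the stearoyl-CoA desaturase, -2.80), CCN2 (a matricellular protein and target of YAP and TEAD, -2.78), BIRC3 (a ubiquitin ligase of NF-kB signalling, -2.77) and STMN1 (a destabilizer of microtubules, -2.77). MT1M and TUBB2B have close paralogs that the probes may share.

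After the falling KLK6 probe, the probes detected with shCtrl and on neither sh1209 array were led by that of HAPLN1. This gene, whose product links hyaluronan to proteoglycans, was at least 12.7-fold lower. APOBEC3G, a cytidine deaminase that restricts retroviruses, was lower by at least 11.8-fold, and TNFSF4, the ligand of the T cell receptor OX40, at least 9.15-fold lower. The hair keratins KRT81 and KRT86 were at least 8.29-fold and 5.88-fold lower. These 2 keratins are near-identical, and their probes may read each other's transcript. In all, 419 members were detected in both shCtrl arrays and no sh1209 array. Of these, 255 passed the threshold, all lower, against 8.99% of all tested probes. Their direction follows from this detection pattern, and so in part does the number that passed. It is therefore not a result to set against that background. Among those that had a current symbol and kept their direction with median scaling, 40 had a lower bound of at least 2-fold.

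The largest rise was at AKR1C4, an aldo-keto reductase of steroid metabolism, from 5.81 and 6.11 with shCtrl to 10.67 and 10.72 with sh1209, by 4.73 (limma, adjusted p = 2.8e-09). Its close paralogs in the AKR1C family may share this probe, and a second AKR1C4 probe was detected on none of the 4 arrays. CALB2, the calcium-binding protein calretinin, rose from 7.33 and 7.19 to 11.44 and 11.37, by 4.15 (limma, adjusted p = 4.3e-09). Another CALB2 probe rose by 0.75 (limma, adjusted p = 0.0061). FSCN1, or fascin, which bundles actin filaments in filopodia and invadopodia, rose from 7.11 and 7.11 to 11.24 and 11.15, by 4.09 (limma, adjusted p = 2.8e-09).

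The next rises were at BAMBI, a decoy receptor that dampens TGF-beta signalling (3.90), BST2, the interferon-induced tetherin (3.40), and ATP1B1, the beta subunit of the sodium pump (3.19, with all 3 of its probes higher). C12orf56 rose by 3.05. ADTRP, a regulator of the tissue factor pathway inhibitor, rose by 3.03, PRDM8, a member of the PRDM family of chromatin regulators, by 3.0, and ANTXR2, a receptor for matrix collagen and anthrax toxin, by 2.98. COL1A2, a chain of type I collagen, rose from 6.13 and 6.07 to 9.11 and 9.03, by 2.97 (limma, adjusted p = 1.6e-08), and its second probe rose by 2.69. The small nucleolar RNA SNORA5A rose by 2.90.

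Among genes that shCtrl arrays did not detect, PDLIM1, an adaptor between actin filaments and kinases, rose at least 8.65-fold, and COL3A1, the chain of type III collagen, at least 8.26-fold. IL1B, the cytokine interleukin-1 beta, had log2 intensities of 4.19 and 4.18 with shCtrl, not detected, and 7.67 and 7.78 with sh1209, at least 8.08-fold higher. STAMBPL1, a deubiquitinase, was at least 6.94-fold higher, RAB17, a GTPase of epithelial membrane traffic, at least 6.66-fold, and RTN1, a reticulon of the endoplasmic reticulum, at least 6.60-fold. Of 743 members detected in both sh1209 arrays and no shCtrl array, 338 passed, all higher, against 9.05% of all tested probes. Their direction, and in part the number that passed, follows from this detection pattern. That number is likewise not a result to set against the background. Among those that had a current symbol and kept their direction with median scaling, 54 had a lower bound of at least 2-fold.

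**Figure D2:**
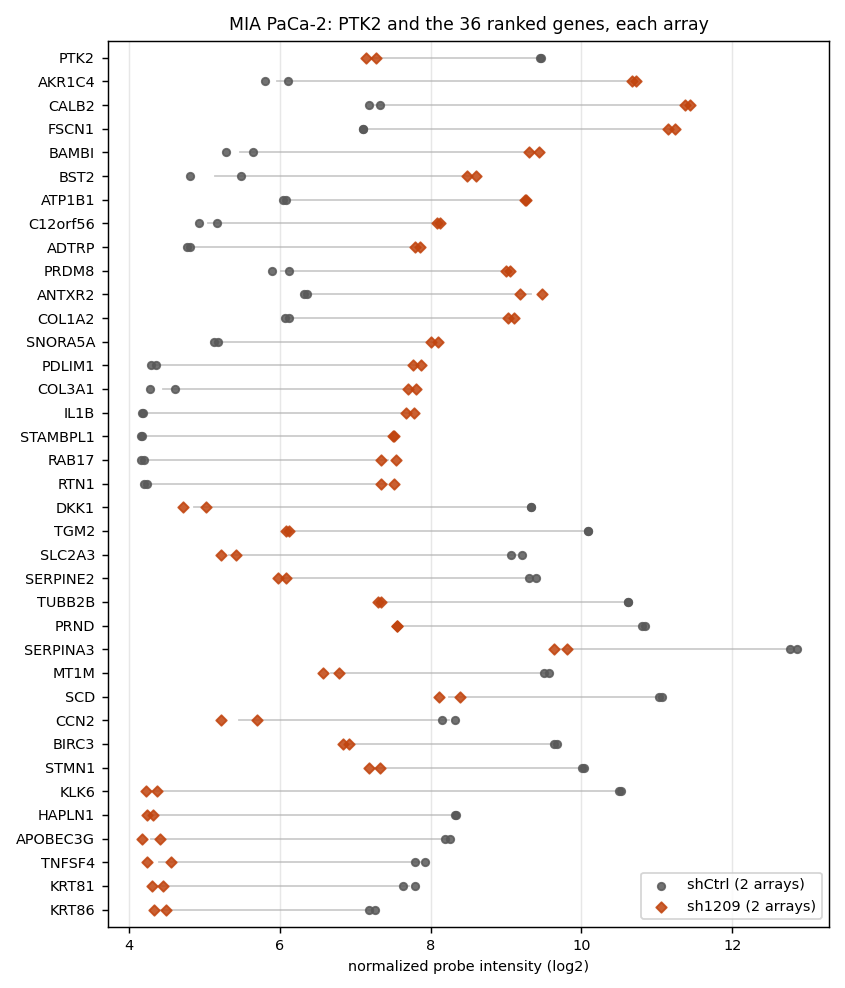
Normalized log2 intensity of each array for PTK2 and the 36 ranked genes in MIA PaCa-2, with circles for the 2 shCtrl arrays, diamonds for the 2 sh1209 arrays and a grey line between the group means. The ranked genes were chosen with groups that do not overlap, so their separation here follows from the choice. Values near 4 to 5 are at the detection limit.

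RefSeq promoters (GRCh38.p14, 250 bases before to 50 after the start) were found for 25 of the 36 ranked genes. Those of 4 genes are shown, KLK6 for the widest fall, CCN2 and DKK1 as falling genes with the TEAD motif, and BST2 as a rising gene with the interferon-stimulated response element. Capitals mark matches on either strand to any of 7 motifs, which were AP-1 (TGANTCA), the cAMP response element (TGACGTCA), TEAD (GGAATG), the antioxidant response element (TGACNNNGC), the interferon-stimulated response element (TTTC, any 2 bases, TTTC), the E-box (CACGTG) and the TATA box (TATAAA).
KLK6, chr19:50969542-50969841, minus strand: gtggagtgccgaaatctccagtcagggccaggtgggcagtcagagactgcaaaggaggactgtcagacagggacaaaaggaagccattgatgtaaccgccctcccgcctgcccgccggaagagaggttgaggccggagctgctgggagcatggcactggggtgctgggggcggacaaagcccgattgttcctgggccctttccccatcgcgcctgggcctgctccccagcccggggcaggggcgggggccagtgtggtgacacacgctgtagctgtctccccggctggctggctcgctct
CCN2, chr6:131951323-131951622, minus strand: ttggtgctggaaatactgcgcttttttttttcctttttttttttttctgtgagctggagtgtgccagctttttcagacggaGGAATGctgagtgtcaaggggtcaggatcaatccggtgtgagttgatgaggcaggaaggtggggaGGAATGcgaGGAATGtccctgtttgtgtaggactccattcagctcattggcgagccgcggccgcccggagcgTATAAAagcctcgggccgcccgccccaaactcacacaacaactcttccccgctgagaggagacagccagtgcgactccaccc
DKK1, chr10:52314031-52314330, plus strand: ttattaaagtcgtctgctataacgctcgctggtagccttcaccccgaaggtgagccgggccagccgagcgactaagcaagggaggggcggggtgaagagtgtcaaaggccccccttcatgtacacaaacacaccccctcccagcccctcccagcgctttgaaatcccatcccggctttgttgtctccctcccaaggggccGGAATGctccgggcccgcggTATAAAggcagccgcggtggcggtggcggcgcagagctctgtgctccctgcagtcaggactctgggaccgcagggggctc
BST2, chr19:17405581-17405880, minus strand: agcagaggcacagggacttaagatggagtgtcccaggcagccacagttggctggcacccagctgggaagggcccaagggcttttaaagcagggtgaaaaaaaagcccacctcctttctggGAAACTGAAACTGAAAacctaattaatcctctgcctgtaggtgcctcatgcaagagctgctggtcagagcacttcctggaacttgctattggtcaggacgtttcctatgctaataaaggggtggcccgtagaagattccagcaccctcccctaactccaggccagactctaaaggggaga
The KLK6 window held none of the 7. CCN2 held TEAD at 3 places and a TATA box, DKK1 held 1 of each, and BST2 held 2 overlapping matches to the interferon-stimulated response element. Among the ranked genes not shown, TEAD also stood in the windows of RAB17, which rose, and PRND, which fell. Of all 27305 promoters in the table, 14.0% held the TEAD motif and 3.65% the interferon-stimulated response element, and the others stood in 7.76% (AP-1), 1.98% (cAMP response element), 13.6% (antioxidant response element), 7.43% (E-box) and 12% (TATA box). The TEAD motif stood in 11% of the promoters of tested genes, 10.3% of those of genes that rose and 10.1% of those that fell. The interferon-stimulated response element stood in 2.86%, 3.47% and 2.29% of them. A match is a description of the letters and not evidence of binding.

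Gene lists were described by the brightest tested probe of each gene. Over all 13462 genes so represented, 11.7% rose and 10.3% fell, with a median change of 0.02. In the FAK neighbourhood, 8 of 37 focal adhesion genes rose and 4 fell, with a median of 0.08. The risers held CAV1, the coat protein of caveolae (1.63), FERMT1, a kindlin that activates integrins (1.08), SH3GL1, the endocytic protein endophilin A2 (1.01), and BCAR1, the FAK-binding scaffold (0.67). ARHGEF7, an exchange factor for RAC1 and CDC42, fell by 1.27, and the SRC family kinase YES1 by 0.79. Of 19 integrin subunits, ITGB4 (at least 2.03-fold) and ITGA5 (0.68) rose and ITGA3 (-1.56) and ITGAV (-0.90) fell. ITGB4 was not detected with shCtrl. For ITGB1, the shared beta subunit of collagen receptors, 1 of 5 tested probes passed, at 0.47 (limma, adjusted p = 0.037), and the brightest changed by 0.21 (limma, adjusted p = 0.32).

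Among the other genes named in the study, ILK, the integrin-linked kinase, changed by 0.01 (limma, adjusted p = 0.98) and SRC by -0.34 (limma, adjusted p = 0.18) at their brightest probes, neither past the threshold. PTK2B, the FAK relative PYK2, was detected on 1 shCtrl and 1 sh1209 array at its brightest probe. ACTR2 and ACTR3, the actin-related subunits of the ARP2/3 complex, changed by 0.23 and 0.11, neither past the threshold, and ISG15, a ubiquitin-like modifier, by 0.05. GDF15 and ITGA2 were detected on 1 shCtrl array and no sh1209 array. MDM2, NODAL, INHBA, CAMP and COL1A1 had no probe that passed the detection filter.

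In the actin and contractile list, 15 of 50 genes rose and 9 fell, with a median of 0.13, while with median scaling 9 rose and 4 fell. Beside FSCN1 and PDLIM1, the risers held PDLIM5 (1.78), RHOB, a small GTPase of endosomes (1.55), LIMA1, which crosslinks filaments (1.49), and ACTA2, smooth muscle actin, not detected with shCtrl and at least 2.04-fold higher. PDLIM3 (-1.82) and TPM3, a tropomyosin (-1.03), fell, and CNN3, a calponin not detected with sh1209, was at least 2.77-fold lower. ACTB rose by 0.38 at its brightest probe (limma, adjusted p = 0.04), and its 2 other probes did not pass.

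In the matrix list, 6 of 41 genes rose and 4 fell. COL17A1, the hemidesmosomal collagen (2.39), COL5A2 (1.59), LAMB1 (at least 1.67-fold) and COL4A1 (0.62) rose with COL1A2 and COL3A1, and HAPLN1, SDC4 (-0.87), LAMC1 (-0.75) and SDC1 (-0.72) fell. FN1, fibronectin, was detected on 1 shCtrl array and no sh1209 array. Of 42 extracellular proteases and inhibitors, 7 rose and 9 fell. SERPINB5, the serpin maspin (at least 3.56-fold), TFPI, the tissue factor pathway inhibitor (1.97), and PLAT, the tissue plasminogen activator (at least 1.59-fold), rose. MMP10 (at least 2.54-fold) and the lysosomal protease CTSC (-1.29) fell along with KLK6, MMP1 and the serpins named above.

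COL1A2, COL3A1, ACTA2 and RGS5, a regulator of G protein signalling in pericytes (1.41, detected on 1 of the 2 shCtrl arrays), are also on the list of fibroblast and stellate cell markers. It holds 12 genes, and those not tested had no probe past the detection filter. Of the 5 tested, 4 rose, with a median of 1.41. COL3A1, ACTA2 and RGS5 became members only through the sh1209 arrays, so these numbers do not speak for the whole list. LUM, the other tested marker, was detected on none of the 4 arrays. Of 6 leukocyte markers tested, CD68, a lysosomal protein also found outside macrophages, rose by 0.81, while LYZ, CD2 and MS4A1 were detected on none of the 4 arrays. Of 3 endothelial markers, ESAM was at least 1.99-fold lower and VWF was not detected. The part of other cells in these values was not tested.

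Of 37 epithelial junction genes, CLDN1, a tight junction claudin, rose by 2.81, and F11R (at least 1.67-fold) and MARVELD2 (0.97) rose, while CLDN12 fell by 1.44. Among 12 keratins, KRT80 (1.91) and KRT13 (at least 2.75-fold) rose and KRT19 (-1.44), KRT10 (-0.41), KRT81 and KRT86 fell. KRT19 was detected on 1 of the 2 sh1209 arrays. Of 10 mesenchymal markers, FOXC1 (1.06), ENG (0.91) and AXL (0.72) rose and none fell, with ENG, like MARVELD2, detected on 1 of the 2 shCtrl arrays, and VIM changed by 0.04 (limma, adjusted p = 0.89). Of 19 cancer stem cell markers and pluripotency regulators, 4 rose and 1 fell. ALDH1A1, an aldehyde dehydrogenase used to mark such cells, rose from 9.70 and 9.68 to 12.02 and 12.09, by 2.36 (limma, adjusted p = 6.9e-08). KLF4 (0.88) and CD9 (0.73) rose, and the methyltransferase EZH2 fell by 0.73.

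Signalling lists moved in both directions. In the TGF-beta, BMP and activin list, 8 of 38 rose and 4 fell. TGFBR3, the co-receptor betaglycan (2.41), and the ligand TGFB3 (1.42, detected on 1 of the 2 shCtrl arrays) rose beside BAMBI. TGFBR2, the type II receptor, went from 6.38 and 6.31 to 4.32 and 4.29, not detected with sh1209, at least 3.20-fold lower. PMEPA1, a TGF-beta target that limits the pathway, was at least 2.25-fold lower, while the BMP targets ID1 (0.46), ID2 (0.45) and ID3 (0.73) rose. In the WNT and Notch list, 5 of 36 rose and 7 fell. The receptors FZD2 (1.67) and FZD8 (1.35) and the WNT carrier WLS (1.41) rose, and SFRP1, a secreted WNT antagonist, was at least 5.27-fold lower, beside the fall of DKK1. On the Notch side, NOTCH1 (-0.46), the ligand JAG1 (-0.92) and the target genes HES1 (-0.67), HES4 (-1.32) and HEY1 (at least 1.63-fold) fell.

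Of 37 genes of ERK output and AP-1, 7 rose and 8 fell. JUN rose from 7.86 and 7.86 to 9.54 and 9.62, by 1.72 (limma, adjusted p = 2.6e-06), and JUND by 1.44, while FOSL1 fell by 1.06. Among feedback genes, DUSP6 (-1.13), SPRED1 (-0.88), SPRY4 (-0.68) and SPRY1 (-0.60) fell, and DUSP5 (1.49) and DUSP1 (1.17) rose. IER3, an immediate early gene, fell by 2.29. In the YAP and TEAD list, 5 of 24 rose, GADD45A by 1.65, and 3 fell, CCN2 by 2.78 and TEAD4 by 0.99. Of 36 genes on the receptor tyrosine kinase and ligand list, 5 rose and 6 fell. The rises were led by IGFBP4, a secreted IGF-binding protein (1.65), and DDR2, a collagen receptor (1.11). The falls were led by VEGFB (-1.39) and FGFR3 (-1.02).

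In the inflammasome, cytokine and NF-kB list, 9 of 37 rose and 4 fell. CASP1, the protease that matures IL1B, was not detected with shCtrl and rose to 6.89 and 6.71 at its brightest probe, at least 4.27-fold. CARD16 (at least 1.54-fold), IL1RAP (at least 1.35-fold) and IL1R1 (0.64) rose too. The chemokines CXCL5 (-2.76) and CXCL2 (-1.44) fell, as did BIRC3 and NFKB2 (at least 1.77-fold), while NFKB1 (0.59) and NFKBIA (0.63) rose. The interferon response list gave 6 rises and 4 falls among 50 genes, near the background. GBP2 rose by 1.35 beside BST2, and PSMB8 (-1.21), UBE2L6 (-1.16) and IFI16 (-0.96) fell.

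Of 37 G1 cyclins, CDK inhibitors and p53 targets, 5 rose and 9 fell, with a median of -0.14. CDK6, the G1 kinase, went from 7.00 and 7.07 to 4.97 and 4.98, a change of -2.06 (limma, adjusted p = 2.1e-07). The cyclins CCNE2 (-1.54), CCND3 (-1.19) and CCNE1 (-1.15) fell, and CCND2, not detected with shCtrl, was at least 2.88-fold higher. SFN, a p53 target, was at least 3.45-fold higher, while CDKN1A fell by 0.77. Of 50 DNA replication genes, 6 rose and 11 fell, with GINS4 (-0.90), POLE2 (-0.86) and CDC45 (-0.82) among the falls and GINS3 (1.20) and MCM2 (0.76) among the rises. Of 51 mitotic genes, 3 rose and 6 fell. Of 17 BCL2 family genes, 2 rose and 5 fell, among them BNIP3L (-1.78), PMAIP1, or NOXA (-1.09), and HRK (-0.78).

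Of 36 glycolysis and hypoxia genes, 10 fell and 3 rose, with a median of -0.15. SLC2A3, BNIP3L, ENO2 (-1.31) and VEGFA (-0.77) fell, and ADM, adrenomedullin, rose by 2.28. Of 32 cholesterol synthesis and uptake genes, a list that also holds fatty acid enzymes, 9 fell and 3 rose, but with median scaling 2 fell and 1 rose. With median scaling over probes detected on all arrays, 7 fell and 2 rose. SCD and IDI1 (-1.07) fell, and ELOVL6, a fatty acid elongase not detected with shCtrl, was at least 4.73-fold higher. Of 39 ATF4 and unfolded protein response genes, 12 fell and 7 rose, with a median of -0.20. ATF4 itself (-0.89), DDIT4 (-1.59), TRIB3 (-1.20) and ASNS (-0.70) fell, and CALR (0.72) and AARS1 (0.85) rose. Of 32 NRF2 targets, 5 rose, led by ABCC2 (1.31), and 5 fell, led by the ferritin heavy chain FTH1 (-1.93). Of 41 ribosome biogenesis genes, 8 rose, led by NOB1 (1.09), and 3 fell, led by NHP2 (-1.14). With median scaling the calls were 3 rises and 8 falls in the ATF4 list, 2 and 6 in glycolysis and hypoxia, 4 and 2 among NRF2 targets, 3 and 2 in ribosome biogenesis, 5 and 5 in the G1 list, 4 and 6 in DNA replication, 1 and 3 among mitotic genes and in the BCL2 family, 3 and 3 in the interferon list, 6 and 5 in the inflammasome, cytokine and NF-kB list, and 5 and 3 in both the focal adhesion and the TGF-beta list. They were 4 and 5 in the WNT and Notch list, 6 and 6 in the ERK and AP-1 list, 3 and 1 among stem cell markers, and 5 and 9 among proteases and inhibitors. In the matrix list they were 5 and 4, in the YAP and TEAD list 5 and 2, among receptor tyrosine kinases and ligands 5 and 5, and among keratins 2 and 3. Those of the integrin, junction, mesenchymal, ductal, fibroblast, leukocyte and endothelial lists did not change. Median scaling over probes detected on all arrays gave other calls, such as 5 rises and 10 falls in the ATF4 list. They were 2 and 10 in glycolysis and hypoxia, 6 and 11 in DNA replication, 5 and 6 in the G1 list and 5 and 3 in the TGF-beta list.

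**Figure D3:**
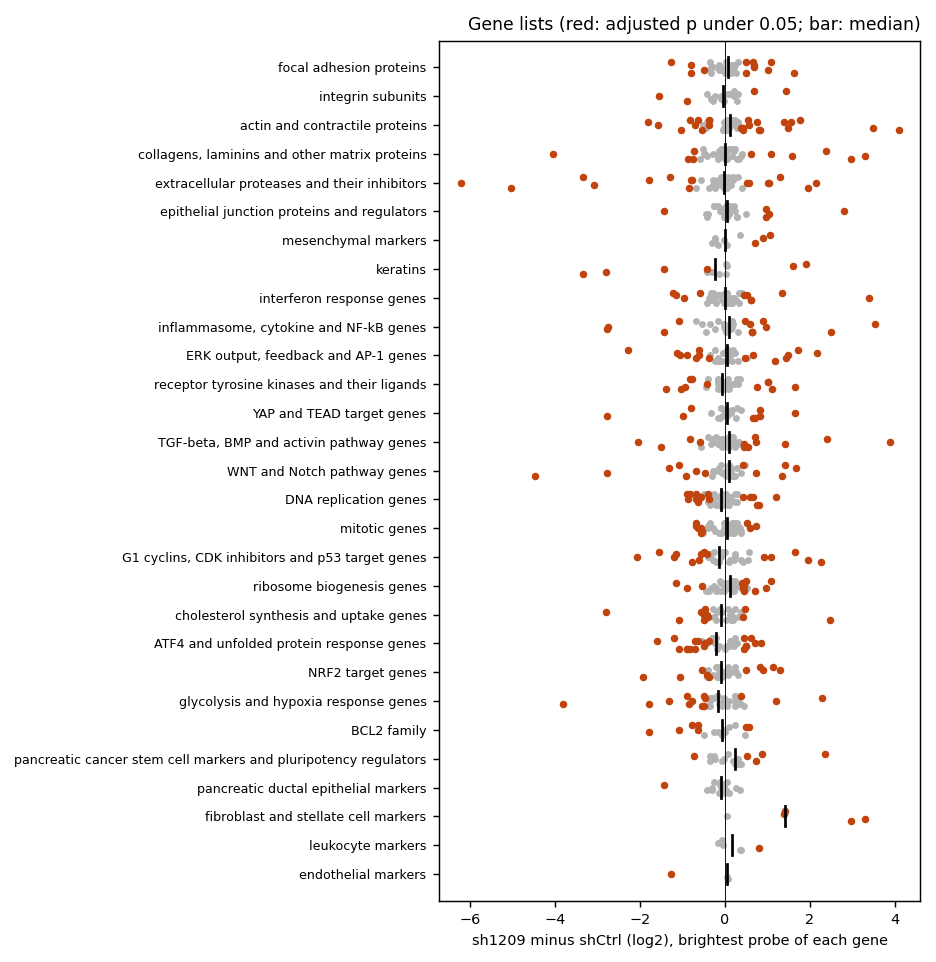
Log2 change (sh1209 minus shCtrl, horizontal) of the brightest probe of each tested gene, 1 row for each of 29 gene lists, with genes past an adjusted p under 0.05 in red, others in grey and a black bar at the list's median. Most medians lie near 0, and that of the fibroblast and stellate cell markers lies at 1.41 from the 5 tested of 12 genes.

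By chromosome, the member genes did not move evenly. On chromosome 19, the median change of 658 genes was 0.26 and 74.0% were above 0. At an adjusted p under 0.05, 188 were higher (28.6%) and 35 lower (5.32%), against 15.8% and 13.9% of all 9892 member genes. Each of the 4 pairs of 1 sh1209 and 1 shCtrl array gave 0.24 to 0.26. In 16 runs of 40 neighbouring genes along that chromosome, every median lay between 0.14 and 0.35. On chromosome 16, the median of 470 genes was 0.19, with 102 higher (21.7%) and 42 lower (8.94%). Its runs lay between -0.04 and 0.09 up to UQCRC2 and between 0.16 and 0.46 beyond that gene. Medians of the other chromosomes were -0.10 to 0.09, and 52.1% of their 8764 genes were above 0. With median scaling the medians were 0.25 and 0.18. With sh1319, set against the same shCtrl arrays, chromosome 19 had a median of 0.26 and chromosome 16 one of -0.01. The medians of sh1209 minus sh1319 were 0.01 and 0.15, while those of the other chromosomes ran from -0.23 (chromosome 21) to 0.13 (chromosome 7). In Capan-1, sh1209 gave 0.11 and 0.01, and -0.13 (chromosome 14) to 0.10 (chromosome 15) on the other chromosomes. This was noticed in the data, genes are not independent replicates, and its cause was not tested.

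**Figure D4:**
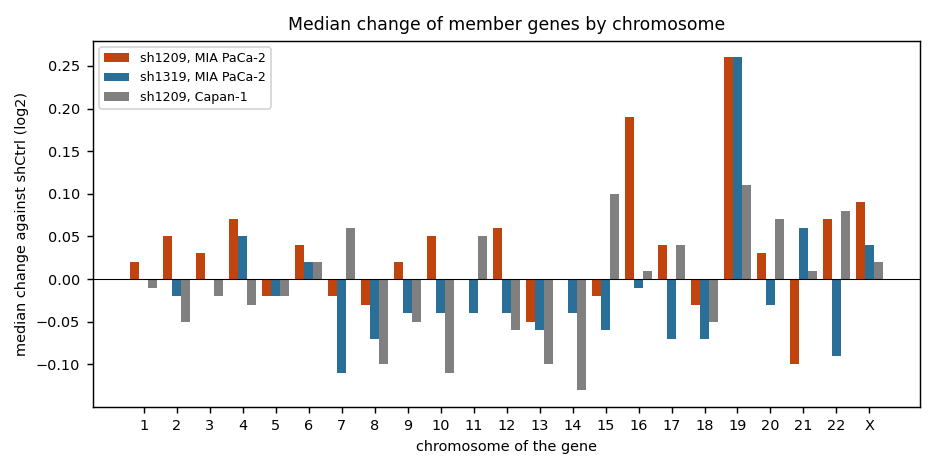
Median log2 change against shCtrl of the member genes on each chromosome (bars, by their brightest probe), for sh1209 and sh1319 in MIA PaCa-2, which share their shCtrl arrays, and for sh1209 in Capan-1. Chromosome 19 stands at 0.26 with both hairpins in MIA PaCa-2 and chromosome 16 at 0.19 with sh1209.

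The second FAK hairpin shows which changes were not shared. Between sh1209 and sh1319 in MIA PaCa-2, 22.6% of the 24207 probes differed at an adjusted p under 0.05, among them 5129 members. The split was 2773 higher with sh1209 and 2705 lower, and 1206 and 2271 with median scaling. It was 2201 and 2229 with median scaling over probes detected on all arrays. PTK2 did not differ detectably (0.24, limma, adjusted p = 0.17). Values against the same shCtrl arrays are given side by side, and only the direct test between hairpins compares them. The ranking of the genes used the sh1209 arrays, which enter that test too. CALB2 changed by 4.15 with sh1209 and -1.73 with sh1319, and differed between them by 5.88 (limma, adjusted p = 5.6e-10). CXCL5 changed by -2.76 and 1.02 (difference -3.77, limma, adjusted p = 2.4e-08) and BIRC3 by -2.77 and 0.57 (difference -3.35, limma, adjusted p = 2.1e-08). SNORA5A and SCD changed with sh1209 as given above and by -0.23 and 0.05 with sh1319, with differences of 3.13 and -2.85. RTN1, detected with sh1209, was detected on no sh1319 array. PSMB8, an immunoproteasome subunit, changed at its brightest probe by -1.21 with sh1209 and 1.74 with sh1319 (difference -2.95, limma, adjusted p = 1.3e-07). BAMBI changed by 3.90 and 3.88, and its difference of 0.02 did not pass (limma, adjusted p = 0.94). The falling KLK6 probe, 2970154, and HAPLN1 probe 2060202 were detected with neither FAK hairpin. They were at least 57.5-fold and 12.7-fold lower with sh1209 and 56.0-fold and 12.3-fold lower with sh1319. A difference between the hairpins could thus not be measured at these probes, and the other KLK6 probe was detected with sh1209.

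In Capan-1, PTK2 fell by 0.61 with the same hairpin (limma, adjusted p = 0.0036), and the responses of PTK2 to sh1209 in the 2 lines differed by -1.63 (limma, adjusted p = 4.5e-05). Of all probes tested, 14.8% had a response to sh1209 that differed between the lines, 1794 higher in MIA PaCa-2 and 1800 lower, against 483 and 1365 with median scaling. Median scaling over probes detected on all arrays gave 1200 and 1200. With sh1209 in Capan-1, 4074 of the 24207 probes tested passed the threshold. Of the 4330 members past the threshold in MIA PaCa-2, 902 passed in the same direction in Capan-1, 20.8% of them and 22.1% of those 4074. In the opposite direction, 359 passed. Another 302 were detected on none of the 4 Capan-1 arrays. Across the members, the 2 sets of changes correlated at 0.15 (Pearson, a description over probes, with all arrays on 1 chip). ADTRP rose in both lines, by 3.03 and 2.54, and IL1B at least 8.08-fold in MIA PaCa-2 and by 1.86 on the log2 scale in Capan-1, while DKK1 fell by 4.46 and by 2.00. SERPINA3 fell by 3.08 in MIA PaCa-2 and rose by 2.79 in Capan-1, and CCN2 fell by 2.78 and rose by 1.49.

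**Figure D5:**
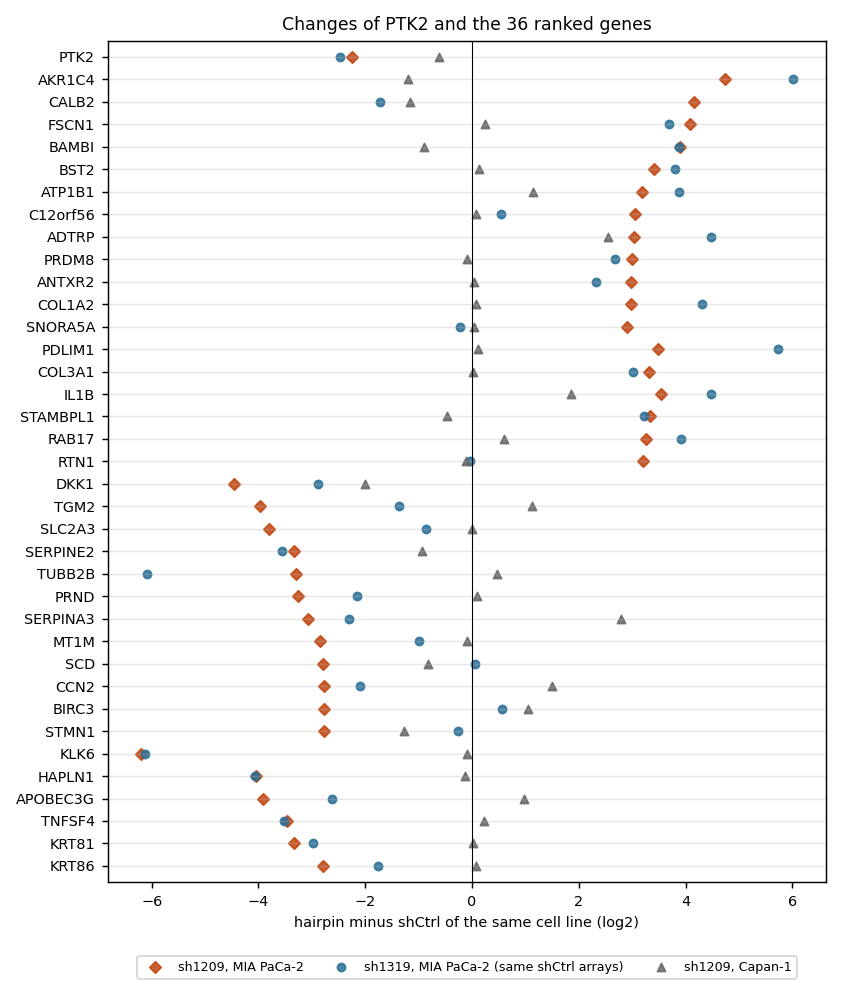
Log2 change against shCtrl of the same cell line for PTK2 and the 36 ranked genes, with diamonds for sh1209 in MIA PaCa-2, circles for sh1319 in MIA PaCa-2 (same shCtrl arrays) and triangles for sh1209 in Capan-1. CALB2 stands at 4.15 with sh1209 and -1.73 with sh1319, and most triangles lie nearer to 0 than the diamonds. The 36 genes were ranked on the diamonds, so this follows in part from the choice.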

How the data were processed

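RNA from 12 arrays on 1 chip was compared in 6 groups of 2, grouped by the deposited labels. The authors deposited linear probe intensity values with detection p-values, without normalization, and the submitters' processing notes name GenomeStudio 2011.1. The table has 47320 rows, of which 92 spike-in probes were left out. limma 3.58.1 in R 4.3.3 corrected the background (normexp from the detection p-values, offset 16) and quantile-normalized the log2 values. Tested were the 24207 probes that 2 or more arrays detected at p under 0.05, with lmFit and eBayes on the 6 group means (6 residual degrees of freedom), so that all groups share 1 estimate of the spread, with Benjamini-Hochberg adjustment over all of them. The low number of arrays limits the precision.

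Genes named are PTK2, genes the paper names, the 12 largest rises and 12 largest falls among probes detected on all 4 arrays, the 6 largest lower bounds in each direction, and the most changed genes of each of 29 lists. For a lower bound, the mean of the brighter group is set against, per array of the dimmer one, the higher of the lowest normalized signal among detected probes and the probe's own. The ranked probes passed the threshold, kept both groups apart and kept their direction with median scaling. The members, the lists and the rule were chosen with earlier results of these data known. List values are those of each gene's brightest probe. Beside the rule, examples within lists were chosen after their values were seen, and 1 junction gene is not reported here. Gene names of the table were matched to current symbols of RefSeq (GRCh38.p14), 21041 of 34599, and 54 rows with a date as gene name were kept as such. Promoters came from RefSeq.

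Alternatives were no background correction, an offset of 50, median scaling, no filter, a stricter filter, members only, fewer arrays in the fit, the replicate number as a block, array weights, each array left out, the methods' t-test and a minimum log2 change of 1. Median scaling over probes detected on all arrays was added after seeing the data. The fit was tested on simulated data.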

Additional observations from a re-analysis of the deposited data

Results flagged for a closer look

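The response to sh1209 differed between MIA PaCa-2 and Capan-1, by the test of that difference, for 36 of 37 genes looked at. The 36 ranked genes were chosen on the MIA PaCa-2 change, which is part of the difference, so the number of them is no evidence of a general divergence. Values are the log2 change in MIA PaCa-2 minus that in Capan-1. For PTK2 it was -1.63. It was above 0 for AKR1C4 (5.93), CALB2 (5.31), FSCN1 (3.84), BAMBI (4.80), BST2 (3.27), ATP1B1 (2.04), C12orf56 (2.98), PRDM8 (3.10), ANTXR2 (2.94), COL1A2 (2.89), SNORA5A (2.87), PDLIM1 (3.38), COL3A1 (3.30), IL1B (1.69), STAMBPL1 (3.81), RAB17 (2.67) and RTN1 (3.32). It was below 0 for DKK1 (-2.46), TGM2 (-5.10), SLC2A3 (-3.81), SERPINE2 (-2.40), TUBB2B (-3.75), PRND (-3.35), SERPINA3 (-5.87), MT1M (-2.76), SCD (-1.98), CCN2 (-4.27), BIRC3 (-3.81), STMN1 (-1.51), KLK6 (-6.11), HAPLN1 (-3.90), APOBEC3G (-4.90), TNFSF4 (-3.69), KRT81 (-3.35) and KRT86 (-2.87). ADTRP, with 0.49, did not pass (limma, adjusted p = 0.056). At the probes used here, some of these genes, such as COL3A1, RTN1 and HAPLN1, were not detected with either hairpin in Capan-1. Where a group was not detected, as for KLK6 with sh1209, the value is a fitted one and no bound.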

How the results depend on the processing

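The change of PTK2 stayed between -2.37 and -1.81 under every alternative run and passed in all but the methods' t-test (-2.24, adjusted p = 0.1, against 2.9e-13 to 0.0014 elsewhere). Leaving out each array gave -2.31 to -2.18. The count of changed probes, 4365, was 2243 with median scaling, 2302 with the 4 compared arrays alone, 837 with a minimum log2 change of 1, and 3001 to 3387 with an array left out. For sh1209 against sh1319, the count of 5478 was 3477 with median scaling, with 1206 higher and 2271 lower against 2773 and 2705, 1279 with the minimum change and 4079 to 4310 with an array left out. For the difference between cell lines, 3594 became 1848 with median scaling, with 483 higher and 1365 lower against 1794 and 1800, 1450 with the minimum change and 2423 to 3009 with an array left out. Median scaling over probes detected on all arrays gave 3160, 4430 and 2400 probes for these comparisons in turn. Its splits were 1534 higher and 1626 lower, 2201 and 2229, and 1200 and 1200. The methods' t-test gave 4613 and 5492 probes at its unadjusted threshold for the first 2 comparisons and, after Benjamini-Hochberg adjustment, 1 and 1. The causes of these shifts were not tested. For the 36 ranked genes, 536 of 572 recomputed values kept direction and call, and the other 36, 1 per gene, lost the call in the methods' t-test. These genes were chosen for large changes that passed the threshold and kept their direction with median scaling. The number kept therefore follows in part from the choice. Replicate numbers did not pair the arrays (correlation of deviations 0.05 between shCtrl and sh1209), and a replicate block gave 4247, 5433 and 3422 probes and -2.24 for PTK2. Probes near background carry understated changes, and bounds rest on the lowest detected signal.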

Other observations

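Several probes of 1 gene mostly gave the same direction. Of 2543 genes with at least 2 member probes, 495 had at least 2 probes past the threshold, and in 481 of them these probes all moved one way, while in 14 they moved both ways.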
